A study of Drosophila melanogaster with 6 samples.

Results

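The genes described here encode the Sm ring and the core proteins of the spliceosome outside the U4/U6.U5 tri-snRNP. They were chosen by name, as table rows whose gene symbol was among 37 listed symbols, and kept where the mean over the 6 libraries was at least 1 FPKM (fragments per kilobase of transcript, scaled to the number of mapped fragments of the library). Of the 37 symbols, 25 had a row and all 25 passed, out of 11836 genes in the table and 8465 at or above 1 FPKM. A further 9 proteins stood in the table under older symbols (Sf3a1 as CG16941, Sf3a2 as CG10754, Sf3b1 as CG2807, Sf3b2 as CG3605, Sf3b3 as CG13900, Sf3b5 as CG11985, Sf3b6 as CG13298, Prp5 as CG6227 and Prp16 as l(1)G0007). These 9 are given beside the 25 and not counted among them. Sf3a3 and Prp22 are synonyms of noi and pea, which were already among the 25, and Prp17, a synonym of CG6015, was not analysed here.

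The libraries came from heads of adult Drosophila melanogaster aged 2 days, raised at 25 °C, with 50 heads pooled per library and both sexes in the series. There were 3 libraries of homozygous Prp31 mutants of the allele P18 and 3 of control flies whose genotype is given as white. The labels state neither what P18 alters in the gene, nor whether the mutants also carry a white allele, nor the sex ratio of each pool. In whole heads, fewer cells of a type and less RNA per cell cannot be told apart.

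Spliceosomal snRNPs are built around small nuclear RNAs. The proteins SmB, SmD1, SmD2, SmD3, SmE, SmF and SmG close as a ring around the Sm site of the U1, U2, U4 and U5 RNAs. The U1 snRNP then recognises the start of an intron, while U2AF and the U2 snRNP with its SF3a and SF3b complexes select the branch point and the end of the intron. The Prp19 complex joins when the spliceosome is activated, and RNA helicases and step factors drive both chemical steps. Prp31, the mutated gene, belongs to the tri-snRNP, which brings U4, U6 and U5 to this machinery.

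Column totals were 348791 to 402452 FPKM, and the depth behind each library is unknown, since the labels give a single average read number for the series. All 8 markers of the head were present and none was called by limma, with the photoreceptor opsin gene ninaE at 14190 ± 2010 FPKM in mutants and 10182 ± 1245 FPKM in controls, and the glial gene repo at 19.1 ± 2.19 and 18.5 ± 1.45 FPKM (mean ± SD, n = 3 each). The neuronal marker nSyb had 86.9 to 108.5 FPKM in mutants and 109.4 to 129.2 FPKM in controls, without overlap (log2 fold change -0.32, limma adjusted p = 0.129). The groups of ninaE did not overlap either, at 11886 to 15585 FPKM in mutants and 9201 to 11582 FPKM in controls. Those of trp, ninaC, Arr2, elav, brp and repo overlapped. Prp31 itself had 13.8 ± 0.362 FPKM in mutants and 13.9 ± 0.113 FPKM in controls. White control replicate 3 was unlike its fellow controls. Pearson correlation of log2 values over the tested genes, which are not independent points, was 0.996 between control replicates 1 and 2, but 0.980 and 0.979 between each of these and replicate 3. Control replicate 3 correlated less with mutant replicates 1 to 3, at 0.971, 0.974 and 0.971. Its yolk protein transcripts, made by the fat body of females, were at the mutant level. Yp1 had 9449, 8015 and 19772 FPKM in mutant replicates 1 to 3, 1817 and 2044 FPKM in control replicates 1 and 2, and 8987 FPKM in control replicate 3. Of 6 ovary markers with a row grk alone reached a mean of 1 FPKM, and their summed level was 5.99 to 6.87 FPKM in mutants and 9.25 to 10.2 FPKM in controls, with nos and vas near 0. The gene grk was called lower in mutants (log2 fold change -0.49, limma adjusted p = 0.00808). That call held without any 1 library (limma adjusted p at most 0.0445) but not with a yolk covariate (0.0621). The 7 testis and accessory gland markers summed to 7.12 FPKM in control replicate 2 and to at most 0.519 FPKM elsewhere, and the 2 gut markers with a row to 3.26 to 6.27 FPKM. Of these 2, Mal-A1 overlapped between the groups (4.21 ± 0.640 and 4.14 ± 0.813 FPKM), and Vha100-4 had 1.52, 1.41 and 0.677 FPKM in mutants and 0.043 to 0.059 FPKM in controls. The part of these tissues in the results below was not tested. A fit with a yolk covariate is named below, but it cannot separate yolk level from genotype. Only control replicates 1 and 2 had low yolk levels, so a call lost in that fit has no cause assigned here.

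In the Sm ring, the transcript of 1 gene rose in mutant heads and 6 did not pass the test. SmE had 31.3, 33.2 and 31.9 FPKM in mutants and 21.5, 22.7 and 26.7 FPKM in controls. Every mutant library lay above every control, and the highest control was replicate 3. The log2 fold change was 0.43 (SE 0.09, 95% interval 0.22 to 0.65, limma adjusted p = 0.0260), a 1.35-fold difference on the scale of FPKM + 1, on which all fold changes here were taken. Leaving out control replicate 3 kept the call, and leaving out any other single library ended it (limma adjusted p 0.0663 to 0.111), as did the fit with yolk protein level as a covariate (0.28, adjusted p = 0.197). SmE is an intronless gene of 521 bases (FBgn0261790, 2L, 7884930 to 7885450, minus strand, build BDGP6). It lies inside an intron of CG7102 on the same strand, and CG7102 had at most 0.562 FPKM in any library.

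The neighbours of SmE in the ring are SmF and SmG, and neither passed the test. SmG had 25.5, 23.9 and 25.6 FPKM in mutants and 22.3, 23.6 and 28.8 FPKM in controls. Its groups overlapped fully, with the lowest and the highest value both in controls, and its log2 fold change was 0.01 (95% interval -0.23 to 0.26, limma adjusted p = 0.942). SmF had 11.8, 11.2 and 11.8 FPKM in mutants and 9.26, 9.26 and 11.3 FPKM in controls. Control replicate 3 of SmF lay within the mutant range, control replicates 1 and 2 below it (log2 fold change 0.21, SE 0.09, limma adjusted p = 0.192).

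SmB, the ring protein that carries a long proline-rich tail, had 14.1, 12.5 and 14.2 FPKM in mutants and 9.47, 9.94 and 13.2 FPKM in controls. Its control replicate 3 was again inside the mutant range, and the log2 fold change of 0.31 (SE 0.12, 95% interval 0.03 to 0.60) did not pass (limma adjusted p = 0.155). SmD3, the partner of SmB, had 11.97, 11.28 and 11.28 FPKM in mutants and 9.76, 9.21 and 11.0 FPKM in controls, without overlap but with control replicate 3 close below the mutants (log2 fold change 0.19, SE 0.08, limma adjusted p = 0.187). Of its exons 279 bases are shared with an antisense RNA gene, and no source used here says whether counting kept the strands apart.

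SmD1 and SmD2, which also pair in the ring, marked the ends of the range of levels among the 25 genes. SmD1 had 4.36, 4.01 and 4.08 FPKM in mutants and 3.57, 3.50 and 4.11 FPKM in controls. SmD2 had 30.6, 29.2 and 27.6 FPKM in mutants and 26.3, 26.9 and 31.0 FPKM in controls. Both had overlapping groups, with log2 fold changes of 0.13 (limma adjusted p = 0.355) and 0.06 (limma adjusted p = 0.715). For SmD2 the highest of all values was that of control replicate 3.

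**Figure D1:**
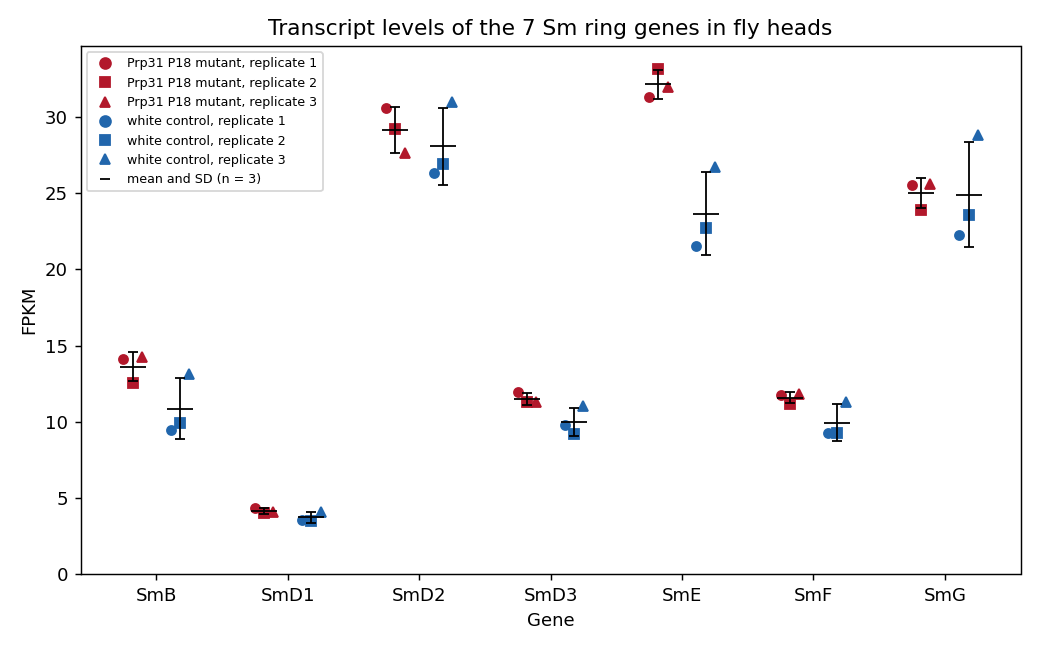
FPKM (linear axis from 0) of the 7 Sm ring genes in each library, with symbols for replicates, red for Prp31 P18 mutants and blue for white controls; black bars give mean and SD, n = 3. The SmE mutants, at 31.3 to 33.2 FPKM, lie above all controls, while control replicate 3 is the highest control for every ring gene.

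Although the 7 proteins occupy single places in each ring, their transcripts were not equally abundant per length. In control heads SmD2 (28.1 ± 2.52 FPKM), SmG (24.9 ± 3.45 FPKM) and SmE (23.6 ± 2.72 FPKM) had the highest means, in this order within each control library, although their ranges over the libraries overlapped. SmB (10.9 ± 2.01 FPKM), SmD3 (9.99 ± 0.922 FPKM) and SmF (9.95 ± 1.19 FPKM) formed a lower group whose spreads also overlapped, and SmD1 (3.72 ± 0.334 FPKM) was lowest (mean ± SD, n = 3). In mutant heads SmE (32.1 ± 0.943 FPKM) had a higher mean than SmD2 (29.2 ± 1.502 FPKM) and SmG (25.0 ± 0.964 FPKM).

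As a share of the summed FPKM of the 7 genes, SmE made up 24.1%, 26.5% and 25.2% in mutants and 21.1%, 21.6% and 21.2% in controls. Control replicate 3, which had a ring total of 126 FPKM like the mutants' 125 to 130 FPKM, kept the SmE share of the other controls. SmG made up 19.7%, 19.1% and 20.2% in mutants and 21.8%, 22.5% and 22.8% in controls. SmD2 made up 21.8% to 23.6% in mutants and 24.6% to 25.8% in controls, so these shares too did not overlap. The shares of SmB, SmD1, SmD3 and SmF overlapped between the groups. The ratio of SmE to SmG was 1.23, 1.39 and 1.25 in mutants and 0.966, 0.962 and 0.928 in controls. These shares and ratios were examined after the values were seen and are given as a description with no test; shares of a sum are not independent, so a higher SmE share lowers the others.

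**Figure D2:**
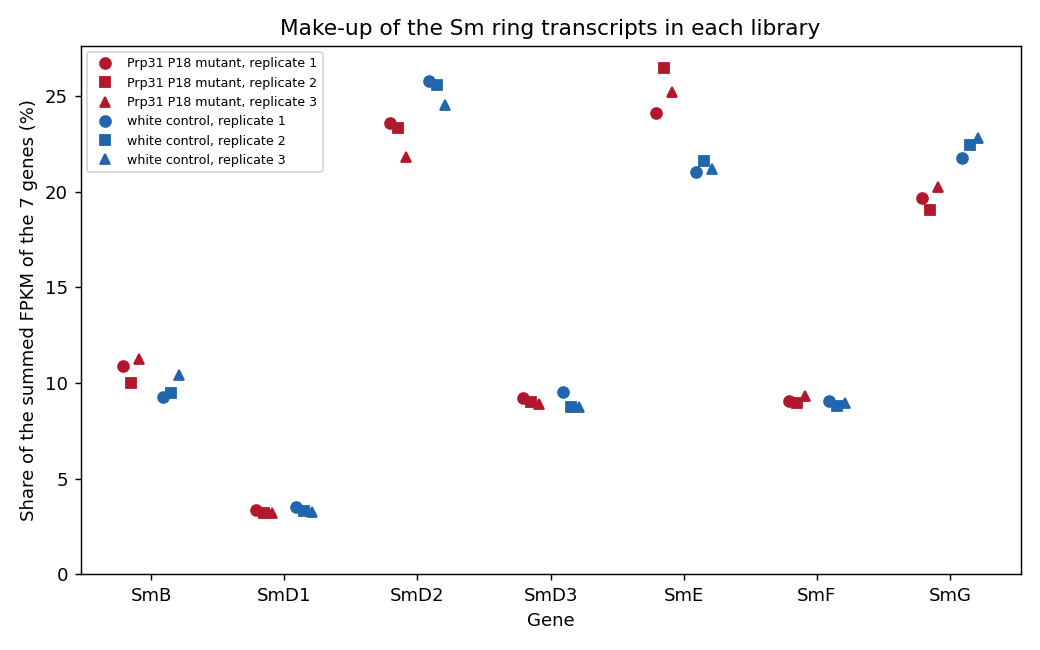
Share of each Sm ring gene in the summed FPKM of the 7 genes (%), per library, with red for mutants, blue for controls and symbols for replicates. SmE lies at 24.1% to 26.5% in mutants and 21.1% to 21.6% in controls, and control replicate 3 falls with the other controls for SmE and SmG.

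None of the 3 U1 proteins was called, and all 3 log2 fold changes were slightly negative; that of snf turned positive with median-ratio scaling (0.04), quantile normalization (0.01), the yolk covariate (0.06) and without control replicate 1 (0.0004). The gene of the large U1-specific RNA-binding protein (FBgn0016978) and snRNP-U1-C, whose zinc finger protein helps U1 bind the start of the intron, had 16.4 ± 2.46 and 14.9 ± 1.23 FPKM in mutants and 17.8 ± 0.839 and 15.9 ± 1.37 FPKM in controls (log2 fold changes -0.12 and -0.08, limma adjusted p = 0.515 and 0.603). The single fly gene snf, which serves both the U1 and the U2 snRNP, had 23.4 ± 1.10 and 24.0 ± 1.17 FPKM (log2 fold change -0.04, limma adjusted p = 0.790).

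The U2 and U2AF genes were not called either. U2af50, the large U2AF subunit that binds the polypyrimidine tract, had 26.0, 25.4 and 25.6 FPKM in mutants and 28.2, 27.8 and 28.9 FPKM in controls. Every mutant lay below every control, and control replicate 3 stood with the other controls, yet the difference was small and did not pass (log2 fold change -0.14, SE 0.07, 95% interval -0.29 to 0.02, limma adjusted p = 0.228). Its partner U2af38 had 12.15 ± 0.540 and 12.42 ± 1.26 FPKM (log2 fold change -0.03, limma adjusted p = 0.875). U2A, a protein of the U2 snRNP, had 6.45 ± 0.857 and 5.50 ± 1.08 FPKM (log2 fold change 0.20, limma adjusted p = 0.370), with the widest interval of the 25 genes, -0.12 to 0.52.

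The SF3a and SF3b complexes, which bind the U2 snRNP at the branch point, included the second largest difference of the 25 genes. The SF3a subunit gene noi (FBgn0014366, 3R, 5589601 to 5591459, intronless) had 13.9, 12.2 and 12.9 FPKM in mutants and 9.08, 8.88 and 11.5 FPKM in controls. The groups did not overlap, and control replicate 3 was again the control nearest the mutants. The log2 fold change was 0.38 (SE 0.11, 95% interval 0.13 to 0.63), with a limma adjusted p of 0.0650. It passed with median-ratio scaling (0.0456), with quantile normalization (0.0416), with library weights (0.00269) and without control replicate 3 (0.00580). With the yolk covariate the log2 fold change of noi was 0.17 (limma adjusted p = 0.511). Of its exons 103 bases are shared with PolZ2 on the opposite strand. The other SF3a genes, under their older symbols, differed less: Sf3a1 (CG16941) had 8.97 ± 0.649 and 8.22 ± 0.169 FPKM, and Sf3a2 (CG10754) 15.8 ± 1.70 and 14.5 ± 1.57 FPKM, with log2 fold changes of 0.11 each (limma adjusted p = 0.369 and 0.547).

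Among the 5 SF3b genes of the symbol list, all under older symbols, none passed the test. Of these 5, Sf3b5 and Sf3b6 were lower in mutants without overlap. Sf3b5 (CG11985), the most abundant transcript among the 34 spliceosome genes, had 38.8, 37.3 and 36.0 FPKM in mutants and 49.1, 43.2 and 42.6 FPKM in controls. The groups did not overlap, and the highest control here was replicate 1 (log2 fold change -0.26, SE 0.08, 95% interval -0.45 to -0.06, limma adjusted p = 0.0969). Sf3b6 (CG13298), known from human cells as the subunit that contacts the branch point adenosine, had 34.2, 36.6 and 32.3 FPKM in mutants and 38.11, 37.96 and 39.82 FPKM in controls, again without overlap (log2 fold change -0.17, limma adjusted p = 0.214).

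Of the large SF3b genes, Sf3b1 and Sf3b2 stayed closer to the controls. Sf3b1 (CG2807), which encodes the HEAT repeat protein, had 12.05 ± 1.22 and 12.56 ± 0.816 FPKM, and Sf3b2 (CG3605) 13.9 ± 0.654 and 14.4 ± 1.15 FPKM (log2 fold changes -0.06 and -0.04, limma adjusted p = 0.714 and 0.755). Both turned positive, at 0.01 to 0.03, with median-ratio scaling and with quantile normalization. Sf3b3 (CG13900) had 5.999, 5.786 and 5.799 FPKM in mutants and 4.35, 4.62 and 6.23 FPKM in controls, where control replicate 3 exceeded every mutant (log2 fold change 0.19, limma adjusted p = 0.330). Of its exons 2508 bases are shared with a long noncoding RNA gene on the same strand, so the division of reads between them is uncertain. Without control replicate 3, Sf3b3 was higher (0.32, limma adjusted p = 0.0218) and Sf3b5 lower (-0.29, limma adjusted p = 0.0387).

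**Figure D3:**
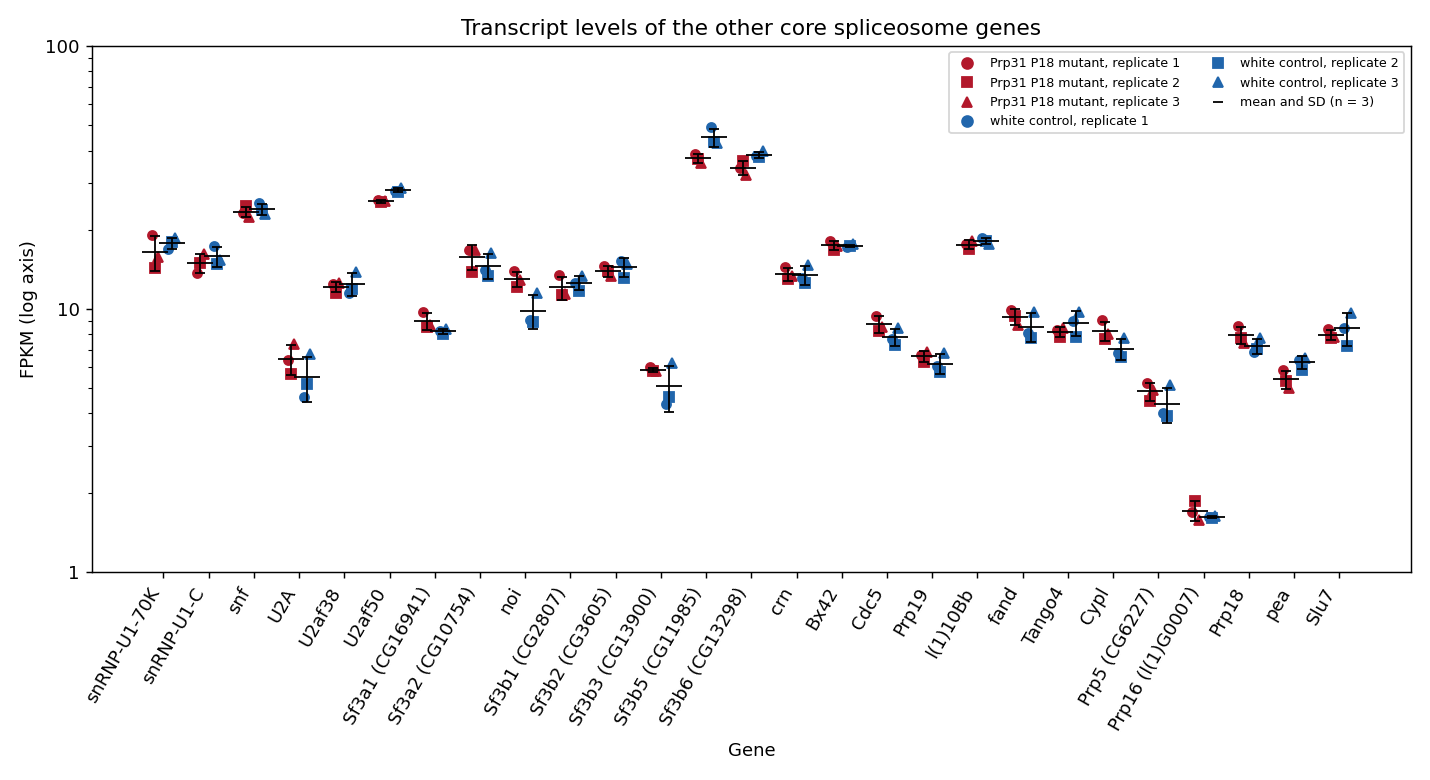
FPKM (log axis) of the 27 spliceosome genes outside the Sm ring, in order of role, with red for mutants, blue for controls and symbols for replicates; black bars give mean and SD, n = 3. Levels run from 1.67 FPKM for Prp16 to 41.2 FPKM for Sf3b5 (means over 6 libraries), and for most genes the red and blue points overlap.

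All 8 genes of the Prp19 complex and its associated proteins that had a row were uncalled with all libraries weighted equally, with log2 fold changes of -0.10 to 0.20. The scaffold genes Prp19, which encodes a ubiquitin ligase, and Cdc5 had 6.60 ± 0.307 and 8.73 ± 0.622 FPKM in mutants and 6.19 ± 0.531 and 7.80 ± 0.576 FPKM in controls (limma adjusted p = 0.547 and 0.298). Bx42, the fly SKIP protein, and crn, a tetratricopeptide repeat protein, had 17.4 ± 0.685 and 13.5 ± 0.744 FPKM in mutants and 17.3 ± 0.217 and 13.4 ± 1.09 FPKM in controls (log2 fold changes 0.01 each, limma adjusted p = 0.964 and 0.936). The tetratricopeptide repeat protein gene fand had 9.94, 9.38 and 8.65 FPKM in mutants and 8.09, 7.78 and 9.76 FPKM in controls (log2 fold change 0.12, limma adjusted p = 0.470). The cyclophilin gene Cypl had 9.03, 7.69 and 8.02 FPKM in mutants and 6.80, 6.55 and 7.77 FPKM in controls (log2 fold change 0.20, limma adjusted p = 0.199). In both, control replicate 3 lay within the mutant range and the groups overlapped. With library weights both were called higher (0.19 for fand and 0.21 for Cypl, limma adjusted p = 0.0496 and 0.0367), and with the yolk covariate neither was (-0.002 and 0.09, adjusted p = 0.995 and 0.770). For Tango4, a WD repeat protein, it was -0.10 (limma adjusted p = 0.525), and for l(1)10Bb, the counterpart of yeast Bud31, it was -0.04 (limma adjusted p = 0.700).

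The helicases and step factors held the most negative log2 fold change of the 25. The DEAH helicase gene pea, whose yeast counterpart Prp22 releases the spliced messenger RNA, had 5.853, 5.320 and 5.002 FPKM in mutants and 6.37, 5.87 and 6.52 FPKM in controls. All mutants lay below all controls, with mutant replicate 1 and control replicate 2 almost touching (log2 fold change -0.18, SE 0.08, 95% interval -0.37 to 0.01, limma adjusted p = 0.194). The step factor genes Prp18 and Slu7, which act at the joining of exons in yeast, had 7.94 ± 0.595 and 7.98 ± 0.342 FPKM in mutants and 7.22 ± 0.486 and 8.43 ± 1.20 FPKM in controls (limma adjusted p = 0.375 and 0.715). The helicase genes Prp5 (CG6227) and Prp16 (l(1)G0007) had 4.85 ± 0.380 and 1.71 ± 0.1496 FPKM in mutants and 4.35 ± 0.664 and 1.62 ± 0.0155 FPKM in controls (limma adjusted p = 0.442 and 0.749). Neither differed beyond the spread between replicates.

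Across the 25 genes, SmE alone was called higher and 0 were called lower. Over all 8465 genes tested, 3.53% were called higher and 7.81% lower (limma, adjusted p under 0.05). At an unadjusted p under 0.05, 3 genes were higher (SmE, noi and SmB) and 0 lower, where all genes gave 8.14% and 19.2%. The mutant libraries lay above all controls in 3 of the 25 (SmE, SmD3 and noi) and below them in U2af50 and pea, beside 9.46% and 21.8% of all genes. The log2 fold change was above 0 in 16 of the 25, beside 35.9% of all genes, and the median of the 25 was 0.06, beside -0.07 for all genes. With the 9 genes under older symbols included, the counts were still 1 higher and 0 lower.

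The intervals limit how large a difference could have gone unseen. In 21 of the 25 genes, and in all 9 under older symbols, the 95% interval of the log2 fold change lay within 0.5 of 0, a 1.41-fold difference on the scale of FPKM + 1; over all genes this held for 68.2%. The exceptions were SmB, SmE, U2A and noi, whose intervals reached 0.52 to 0.65 on the higher side. No interval of the 25 reached below -0.37.

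**Figure D4:**
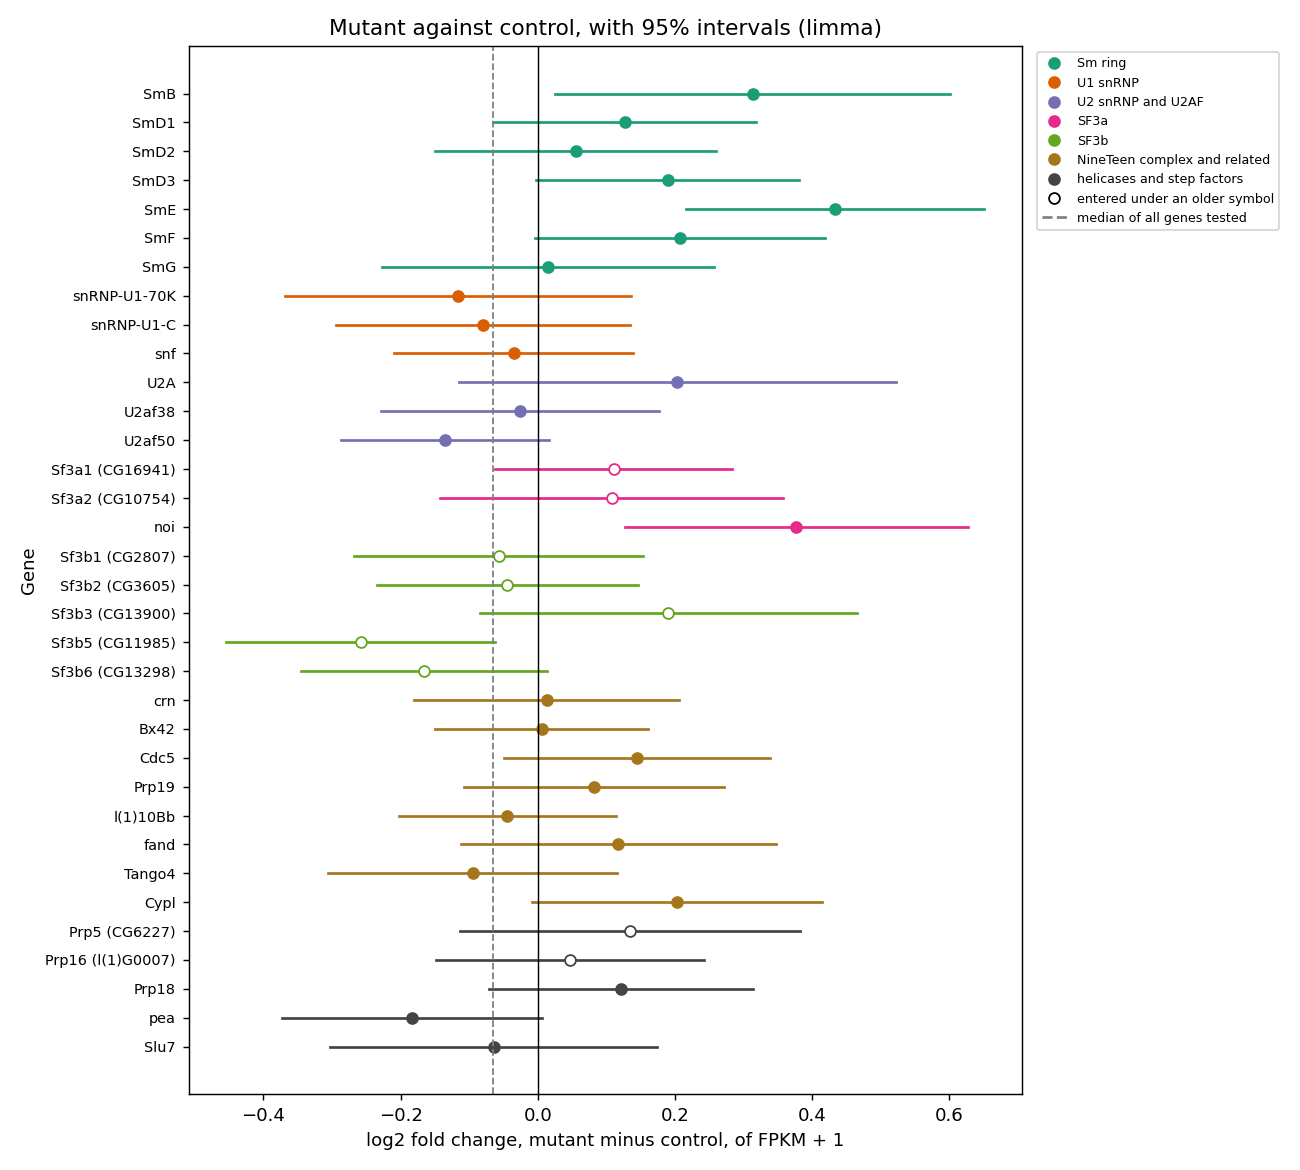
Log2 fold change (mutant minus control, FPKM + 1) with 95% interval from limma for the 25 genes (filled) and the 9 under older symbols (open), coloured by role; the dashed line marks the median of all genes tested, -0.07. All 7 Sm ring genes lie right of 0, from 0.01 for SmG to 0.43 for SmE, while the 3 U1 genes lie left of it.

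Control replicate 3 stood out in these genes, though not in these alone. It was the highest control in 22 of the 25 (88.0%), as it was in 39.7% of all genes tested. The same held in 7 of the 9 genes under older symbols and in other spliceosome lists described below. There it was the highest control in 8 of 9 LSm genes, 12 of 14 tri-snRNP genes, 7 of 9 Sm assembly genes and 15 of 23 other core genes. On the log2 scale control replicate 3 lay above the mean of control replicates 1 and 2 by a median of 0.19 over the 25 genes and 0.26 over the Sm ring. This median was 0.41 over the LSm genes, 0.15 over the tri-snRNP genes and -0.01 over all genes. The mutants lay above control replicates 1 and 2 by a median of 0.13, and below control replicate 3 by a median difference of -0.03. Over all genes these medians were -0.07 and -0.06. In the ring the mutants minus control replicate 3 ranged from -0.20 for SmG to 0.26 for SmE. Thus control replicate 3 was near the mutants in the median of the 25 genes, but not in every gene. The mutants minus control replicate 3 was -0.24 for Slu7 and -0.18 for U2af38, beside 0.02 and 0.05 for the mutants minus control replicates 1 and 2. Control replicate 3 was also near the mutants in its yolk protein transcripts.

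Without control replicate 3, limma called 5 of the 25 as higher and 0 as lower, beside 9.90% and 16.3% of all genes (26.2% in either direction). The 5 were SmE (0.52, adjusted p = 0.00253), noi (0.48, 0.00580), SmB (0.45, 0.00858), SmF (0.29, 0.0241) and SmD3 (0.25, 0.0455), so 4 of 7 ring genes passed. With library weights, which down-weight libraries that vary more, 7 were higher (SmB, SmD3, SmE, SmF, noi, fand and Cypl) and 1 lower (pea), beside 13.3% and 25.6% of all genes (39.0% in either direction). With the mean log2 level of Yp1, Yp2 and Yp3 as a covariate, 0 of the 25 were called. Of all 8465 genes this fit called 181 higher and 310 lower. At that setting the ring's median log2 fold change was 0.03 in place of 0.19, with SmD2 and SmG below 0. Without any 1 of the other libraries 0 of the 25 were called in either direction. These fits called 144 to 199 of all 8465 genes higher and 268 to 476 lower. SmG turned negative when any of these libraries other than mutant replicate 2 was left out.

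**Figure D5:**
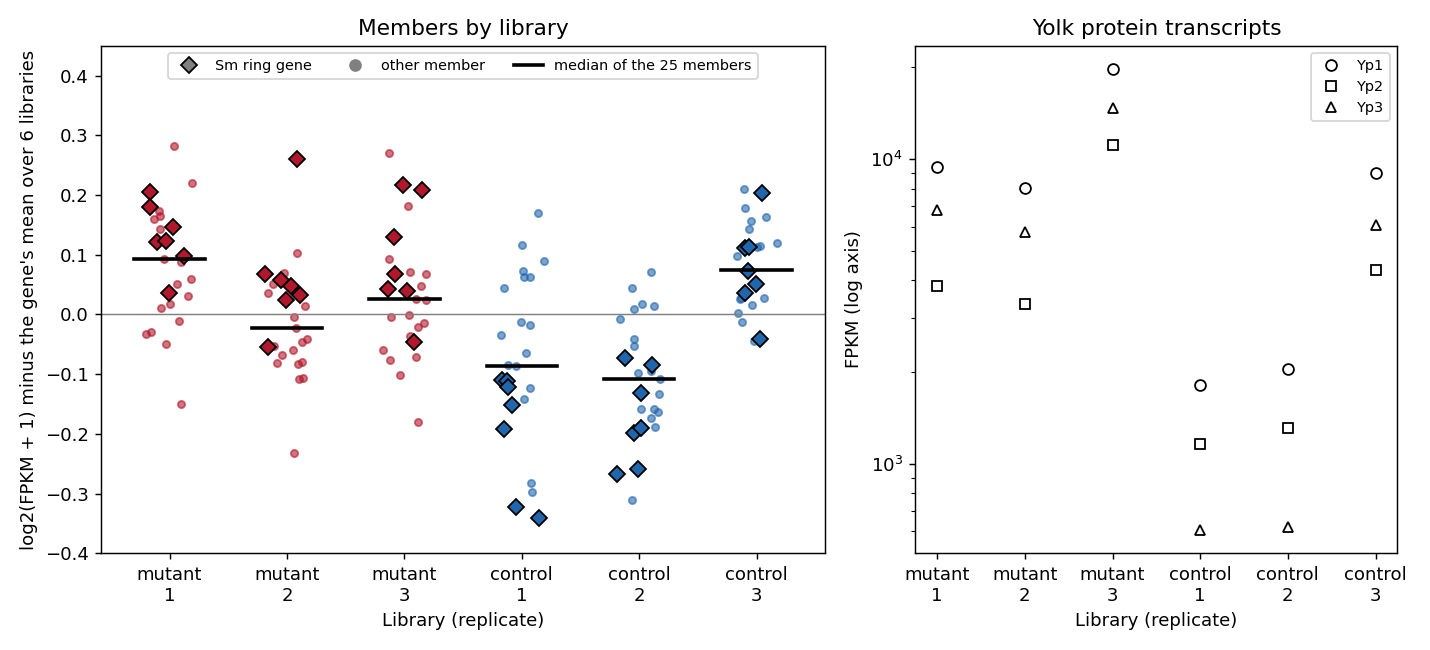
Left, log2(FPKM + 1) of the 25 genes minus each gene's mean over the 6 libraries, with diamonds for the Sm ring and black lines for the median; right, FPKM (log axis) of the yolk protein genes Yp1, Yp2 and Yp3. Control replicate 3 has a median of 0.07, above control replicates 1 and 2 (-0.09 and -0.11), and also has higher yolk protein transcripts than they do.

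Sm proteins are loaded onto small nuclear RNAs with the help of the methylosome and the SMN complex. Of 11 genes listed for this assembly 9 were tested, 0 rose and 1 fell (3.53% and 7.81% over all genes), with a median log2 fold change of 0.06. The 1 that fell was csul, the arginine methyltransferase that modifies SmB, SmD1 and SmD3. It had 3.73, 4.05 and 3.68 FPKM in mutants and 5.12, 5.06 and 5.28 FPKM in controls. The groups were well apart and control replicate 3 lay close to the other controls (log2 fold change -0.35, SE 0.07, limma adjusted p = 0.0202). This call held without control replicate 3 (0.0226) or mutant replicate 2 (0.0465) but did not survive omission of either remaining mutant or of control replicate 1 or 2 (0.0569 to 0.0950) and with the yolk covariate (-0.36, 0.113). The Sm chaperone gene icln had 6.33, 6.05 and 7.22 FPKM in mutants and 4.42, 4.62 and 5.88 FPKM in controls, without overlap (log2 fold change 0.34, limma adjusted p = 0.0994). It passed without control replicate 3 (0.45, limma adjusted p = 0.0127), with library weights (0.40, 0.00494) and with the replicate block (0.34, 0.0434). With the yolk covariate its log2 fold change was 0.07 (limma adjusted p = 0.762).

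No gene of the LSm, other core and tri-snRNP lists was called, beside 3.53% of all genes called higher and 7.81% called lower. Over all genes an unadjusted p under 0.05 was met by 8.14% upward and 19.2% downward. None of 9 LSm genes, which encode proteins of Sm-like rings, was called by limma, while an unadjusted p under 0.05 was met by 0 upward and 1 downward, and the median log2 fold change was -0.05. The most abundant of them were CG2021 (19.4 ± 0.446 and 17.8 ± 1.39 FPKM in mutants and controls) and LSm7 (13.0 ± 1.15 and 12.6 ± 2.34 FPKM). None of 23 other core spliceosome genes was called, with 0 upward and 2 downward below an unadjusted p of 0.05 and a median of -0.02. The most abundant were Prp39, entered as CG1646 (23.7 ± 2.72 and 23.3 ± 1.32 FPKM), and Spf45 (20.6 ± 0.919 and 22.3 ± 2.93 FPKM). None of 14 tri-snRNP genes was called, with 1 upward and 0 downward below an unadjusted p of 0.05 and a median of 0.02, and hoip and CG3436 were the most abundant. Without control replicate 3, limma called 1 LSm gene, 2 other core genes and 1 tri-snRNP gene as higher and 0 as lower, beside 9.90% and 16.3% of all genes. The 2 other core genes were Spx (log2 fold change 0.30, limma adjusted p = 0.0453) and Phf5a, entered as CG9548 (0.29, 0.0313).

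The 25 genes were ordinary in level, at the 21.4th to the 80.9th percentile of the genes tested, with a median at the 54.4th. Their annotated transcripts were short, with a median of 1304 bases and 1 intron beside 1966 bases and 3 introns for the 8296 tested genes with an annotated transcript. Of the 25, 6 were intronless (24.0%, beside 9.51%), among them SmE, SmF and noi, with snRNP-U1-C, U2A and Prp18. The 25 and the 9 under older symbols were spread over the arms, with 9 on X, 7 on 3R and 6 each on 2L, 2R and 3L. None lay within 2 Mb of Prp31 (the nearest, Sf3a2, was 2.35 Mb away). Exons of 11 of the 25 overlapped another gene's exons, and the largest overlap of each was on the opposite strand.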

How the data were processed

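Whole heads were measured by poly(A)-selected, strand-specific RNA sequencing with 75 base single reads and 15 cycles of PCR, per the labels' protocols. The deposited values are FPKM made by the authors; CASAVA 1.8 and STAR 2.5.2b with build BDGP6 are named per the submitters' processing notes, and the FPKM tool, annotation release, strand setting and filters are not given in these sources. FPKM are not counts, so limma 3.58.1 (R 4.3.3) was fitted to log2(FPKM + 1) with a variance trend for genes whose mean reached 1 FPKM, with Benjamini-Hochberg adjustment over all 8465 genes and a threshold of 0.05. Separate cultures are not stated, so SD and p-values reflect the spread of these libraries alone, which may be technical. The step was also run on simulated data with independent noise, of equal size in every library for a given gene. Those data held no library set apart like control replicate 3, so they cannot show how the fit treats such a library. Positions come from an Ensembl annotation of the same assembly name, in which 11630 of 11836 gene IDs were found, and older symbols were matched through the RefSeq and gene name tables. No sequences are shown.

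The genes, lists and alternatives were chosen with earlier results of these data known. Every gene of the 25 is named or given by its ID. Values of each library were given for genes called in any fit with all or 5 libraries, the ring genes, the most and the least abundant, and those with the 2 largest and 2 smallest log2 fold changes. From the other spliceosome lists the called genes, or the 2 most abundant, were named; icln, Sf3b3, Sf3b5 and Sf3b6 were added after their values were seen.

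The alternatives were library weights, a yolk protein covariate, quantile or median-ratio scaling, a pseudocount of 0.1, a 5 FPKM filter, none at all, the replicate number as a block and each library left out. Inclusion of the 9 older symbols, and the other lists without control replicate 3, were added after seeing the data.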

Additional observations from a re-analysis of the deposited data

How the results depend on the processing

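Reads per library are not given, so counting error per gene could not be separated from replicate spread, and 3 libraries per group limit every call. Without each library in turn, all genes called higher were 144 to 838 and lower 268 to 1383 (299 and 661 with all), and members called higher were 0 to 5 (1 with all); the highest in each came without control replicate 3. Library weights gave 1128 and 2170 genes, with 7 members higher and 1 lower. The yolk covariate gave 181 and 310 genes, 0 members higher and a member median of -0.037 in place of 0.06. A filter of 5 FPKM gave 417 genes lower. Median-ratio scaling and quantile normalization each gave 2 members higher, SmE and noi, beside 360 and 384 of all genes. With the older symbols included and control replicate 3 left out, 6 were higher and 1 lower, beside 9.90% and 16.3% of all genes. The causes were not tested.

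Signs turned in genes that were not called in either fit. With the yolk covariate the log2 fold change was -0.040 for SmD2, -0.20 for SmG, 0.058 for snf, -0.13 for U2A, -0.092 for crn, -0.013 for Bx42, -0.054 for Prp19, -0.0020 for fand, -0.094 for Sf3a2, -0.053 for Sf3b3 and -0.064 for Prp5. With median-ratio scaling and quantile normalization it was 0.038 and 0.014 for snf, 0.045 and 0.042 for U2af38, 0.0034 and 0.0025 for Slu7, 0.028 and 0.022 for l(1)10Bb, 0.013 and 0.011 for Sf3b1 and 0.026 and 0.013 for Sf3b2. With library weights it was 0.019 for U2af38 and -0.0067 for Bx42. With 1 library left out it ranged from -0.058 to 0.12 for SmG, -0.070 to 0.00037 for snf, -0.074 to 0.050 for U2af38, -0.033 to 0.072 for crn, -0.023 to 0.031 for Bx42 and -0.16 to 0.024 for Slu7. Of 349 values for the 25 genes under the alternatives, 299 kept their direction and their side of the threshold. Of the 25, 24 were not called before any alternative, so for them this meant staying uncalled. The call of SmE was lost in 6 of the values.

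Pairing by replicate number was not adopted: deviations of same-numbered libraries from their group means correlated at -0.01, 0.21 and 0.32, and mutant replicates 1 and 2 each correlated best with a control of another number. With the replicate number as a block, 406 genes were higher and 736 lower, and 1 member was higher (SmE) and 0 lower.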
